A study of Mus musculus with 14 samples.

Results

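The genes described here encode the proteasome and its helpers. Members were every non-control probe whose gene name begins with Psma, Psmb, Psmc, Psmd, Psme, Psmf or Psmg followed by a number, which gave 49 genes of the 36870 gene names on the array, read by 94 of its 56605 probes. The samples were RNA of isolated CD4+ T-cells of 2 genotypes, 7 Roquin san/+ and 7 wild-type animals, and each was measured on 1 one-colour expression array. Roquin san/+ animals carry 1 copy of the sanroque allele, a point mutation in the ubiquitin ligase Roquin that enlarges the follicular helper T-cell compartment, and some of them develop a lymphoma of these cells. The labels give neither the age of the mice nor whether a mouse carried a lymphoma, and no treatment is named for either genotype. The study's methods describe arrays of lymph node cells from treated and untreated mice and none of CD4+ T-cells, so what these samples are rests on the labels alone.

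The proteasome is a barrel-shaped protease that degrades proteins marked with ubiquitin. Its core particle is built of rings of alpha subunits and beta subunits, and Psmb5, Psmb6 and Psmb7 are the beta subunits that cut peptide bonds in most tissues. Interferon gamma induces Psmb8, Psmb9 and Psmb10, which take the places of Psmb5, Psmb6 and Psmb7 in newly built cores, and the resulting immunoproteasome makes peptides suited to presentation on class I molecules. A regulatory particle of ATPases (Psmc genes) and non-ATPases (Psmd genes) unfolds the substrate, other activators (Psme genes) open the barrel, and chaperones assemble the parts.

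The array read each subunit with 60-base probes. Those for the replaced subunits are shown because each pair of genes arose from a common ancestor, so that it matters how far one probe could read its counterpart. The probe sequences below are those of the deposited array design, with coordinates in mm9 as the array files give them, and capitals mark the bases that are identical in the best ungapped alignment within a pair.
Psmb8, chr17:34337771-34337830, plus strand: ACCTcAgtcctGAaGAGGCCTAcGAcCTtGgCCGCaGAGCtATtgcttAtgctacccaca
Psmb5, chr14:55233161-55233220, minus strand: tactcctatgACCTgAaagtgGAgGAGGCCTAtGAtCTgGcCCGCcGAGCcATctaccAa
Psmb9, chr17:34319174-34319233, minus strand: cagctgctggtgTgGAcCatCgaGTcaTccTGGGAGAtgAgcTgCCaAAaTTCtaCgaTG
Psmb6, chr11:70341014-70341073, plus strand: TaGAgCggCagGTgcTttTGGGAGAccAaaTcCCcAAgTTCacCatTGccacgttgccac
The Psmb8 and Psmb5 probes were identical at 31 of 50 aligned bases, with a longest unbroken run of 8 bases. The Psmb9 and Psmb6 probes were identical at 27 of 48 aligned bases, with a longest run of 7 bases. Psmb6 had a second, brighter probe, and that one represents the gene below.

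Values, called levels here, are log2 processed signals from which the 75th percentile of each array was subtracted, so a level of 0 is the brightness of that percentile. The percentile was taken over probes detected, that is well above background, on all 14 arrays. Levels of different probes are not compared with each other. Of the 94 member probes, 69 probes of 45 genes were detected on every array of 1 genotype or of both and were tested. Of these, 59 had passed on all 14 arrays and 10 had passed through the Roquin san/+ arrays alone. The untested genes were Psma8, Psmb11, Psmd9 and Psmc3ip. The spots of 2 arrays (wild-type replicate E and Roquin san/+ replicate G) were first moved by 2 grid rows onto their own probe names. On these, 19.4% and 21.9% of probes were called well above background against 53.4% to 75.5% on the other 12, so detection there was limited. Roquin san/+ replicate C was dim, with a 75th percentile of 800.4 intensity units against 4898 to 13112 on the other 13 arrays. Markers of CD4+ T-cells (Cd3d, Cd3e, Cd3g, Cd4, Cd28 and Lck) were bright on every array, with a mean level of 0.59 to 2.06 on Roquin san/+ arrays and 0.80 to 2.09 on wild-type arrays. Roquin san/+ replicate F stood apart in B-cell markers: the mean level of 6 B-cell markers was -0.10 there, -6.09 to -3.23 across the 6 remaining Roquin san/+ arrays, and -6.47 to -1.96 on wild-type arrays. In a bulk sample, a change in the make-up of the cells and a change in RNA per cell cannot be told apart.

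No proteasome gene passed the test for a difference between the genotypes. With limma, 0 of 69 member probes had an adjusted p under 0.05, as did 0% of the 12866 probes tested, and the lowest adjusted p of a member was 0.959. At an unadjusted p under 0.05 there were 3 member probes, beside 4.06% of all tested probes. Rank products, a method based on the order of fold changes, called 0 member probes and 1.94% of all probes. The 7 levels of one genotype lay apart from the 7 of the other for 0 member probes and for 0.0311% of all tested probes. The differences were small: 42 of the 45 tested genes, each taken at its brightest tested probe, differed by less than 0.5 log2 units. The 95% confidence interval had a median half-width of 0.35 log2 units over these genes, and for 40 of them it lay wholly within 1 log2 unit of no change.

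Over all 14 arrays the direction of the differences split by role. Of the 45 genes, 38 were lower in Roquin san/+ and 7 were higher, with a median log2 difference of -0.16, beside 50.4% lower, 49.6% higher and a median of -0.0021 over all tested probes. Among the 59 member probes detected on all 14 arrays, 47 were lower, and the median was -0.13, beside 52.9% lower and -0.01 over all 10320 probes detected on all 14. All 7 alpha subunits, all 6 ATPases, all 11 non-ATPases and all 6 assembly chaperones tested had lower means in Roquin san/+, and the 3 immunoproteasome subunits had higher means. Under other scalings the chaperones and the immunoproteasome subunits kept these counts, while 1 alpha subunit (the authors' log2 values), 1 ATPase (the authors' values, normexp and quantile normalization) and 2 non-ATPases (normexp) were higher. These are counts of signs of differences that did not pass the test, in genes that share arrays. Within slides the median was -0.17 on slide 1 (5 Roquin san/+ and 2 wild-type arrays) and -0.06 on slide 2 (2 and 5 arrays). It was -0.08 without Roquin san/+ replicate C, where 35 of 45 genes were lower, and -0.09 without wild-type replicate C, where 32 were lower. The split by role did not hold in full within slides. On slide 1 alone 1 of 7 alpha subunits, 2 of 6 ATPases, 3 of 11 non-ATPases and 1 of 6 chaperones were higher. Of the 3 immunoproteasome subunits, 2 were higher there. On slide 2 alone 2 of 6 ATPases, 2 of 11 non-ATPases and 1 of 6 chaperones were higher.

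**Figure D1:**
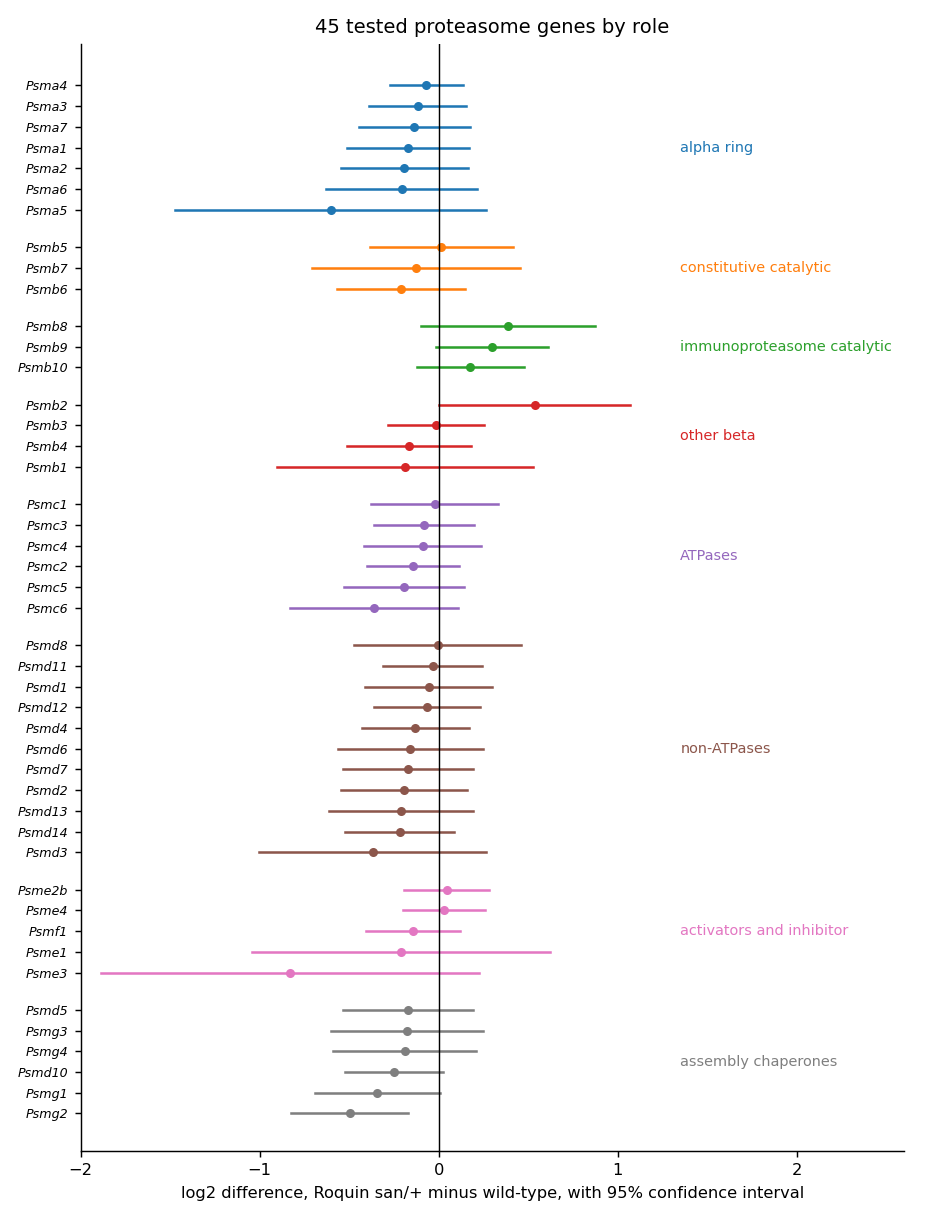
Log2 difference between genotypes (x axis, Roquin san/+ minus wild-type, points) with the 95% confidence interval from limma (lines) for the 45 tested genes, each at its brightest tested probe, in blocks by role (y axis and colour). Most points lie to the left of 0, the 3 immunoproteasome subunits lie to the right, and the intervals of all genes but Psmb2 and Psmg2 include 0.

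The 3 immunoproteasome subunits were 1.13-fold to 1.31-fold higher in Roquin san/+, within the spread of the arrays. Psmb8, which replaces Psmb5 and cleaves after hydrophobic residues, had levels of 0.07 at the lowest, 0.87 at the median and 1.11 at the highest in Roquin san/+, and of -0.38, 0.62 and 0.96 in wild-type. Its log2 difference was 0.39 (95% confidence interval -0.10 to 0.87, limma adjusted p = 0.959). The genotypes overlapped: replicate C was the lowest array of each, and Roquin san/+ replicates E and G lay above every wild-type array.

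Psmb9, which replaces Psmb6, had levels of 0.63, 0.88 and 1.20 (lowest, median and highest) in Roquin san/+ and of 0.01, 0.72 and 0.94 in wild-type. Its log2 difference was 0.30 (95% confidence interval -0.02 to 0.61, limma adjusted p = 0.959). Wild-type replicate C stood below the other 6 wild-type arrays, which overlapped the Roquin san/+ arrays. A second Psmb9 probe, without a RefSeq mRNA, was well above background on 6 arrays of each genotype and was not tested.

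Psmb10, which replaces Psmb7, had levels of 1.97, 2.21 and 2.53 in Roquin san/+ and of 1.57, 2.13 and 2.49 in wild-type. Its log2 difference was 0.18 (95% confidence interval -0.12 to 0.48, limma adjusted p = 0.959). Again replicate C was the lowest array of each genotype, and the ranges overlapped over most of their length.

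Single arrays and the slide carried much of these values. Without wild-type replicate C the log2 differences were 0.26 for Psmb8, 0.19 for Psmb9 and 0.10 for Psmb10. On slide 1 alone they were -0.14, 0.09 and 0.07, and on slide 2 alone 0.76, 0.51 and 0.34. Without Roquin san/+ replicate F, the array highest in B-cell and myeloid markers, they were 0.42, 0.32 and 0.17.

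The subunits that they replace showed no common direction. Psmb5 had levels of -1.61, -1.06 and -0.69 (lowest, median and highest) in Roquin san/+ and of -1.70, -1.18 and -0.53 in wild-type, a log2 difference of 0.02 (95% confidence interval -0.38 to 0.42). Both ranges were nearly the same. The sign of Psmb5 turned when Roquin san/+ replicates B, D or E or wild-type replicates D, E or G were left out, and under several other settings.

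Psmb6 had levels of 0.64, 1.32 and 1.70 in Roquin san/+ and of 1.27, 1.46 and 1.95 in wild-type, a log2 difference of -0.21 (95% confidence interval -0.57 to 0.15). Its other probe, whose sequence is printed above, gave -0.06 (95% confidence interval -0.47 to 0.35). Roquin san/+ replicate C was low on both, and the other 6 Roquin san/+ arrays lay within or close to the wild-type range.

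Psmb7 had levels of -2.60, -2.22 and -1.87 in Roquin san/+ and of -3.66, -1.94 and -1.42 in wild-type, a log2 difference of -0.13 (95% confidence interval -0.71 to 0.45). The lowest wild-type value was replicate E, 1 of the displaced arrays, where this probe was not well above background. Without that array the difference was -0.39.

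**Figure D2:**
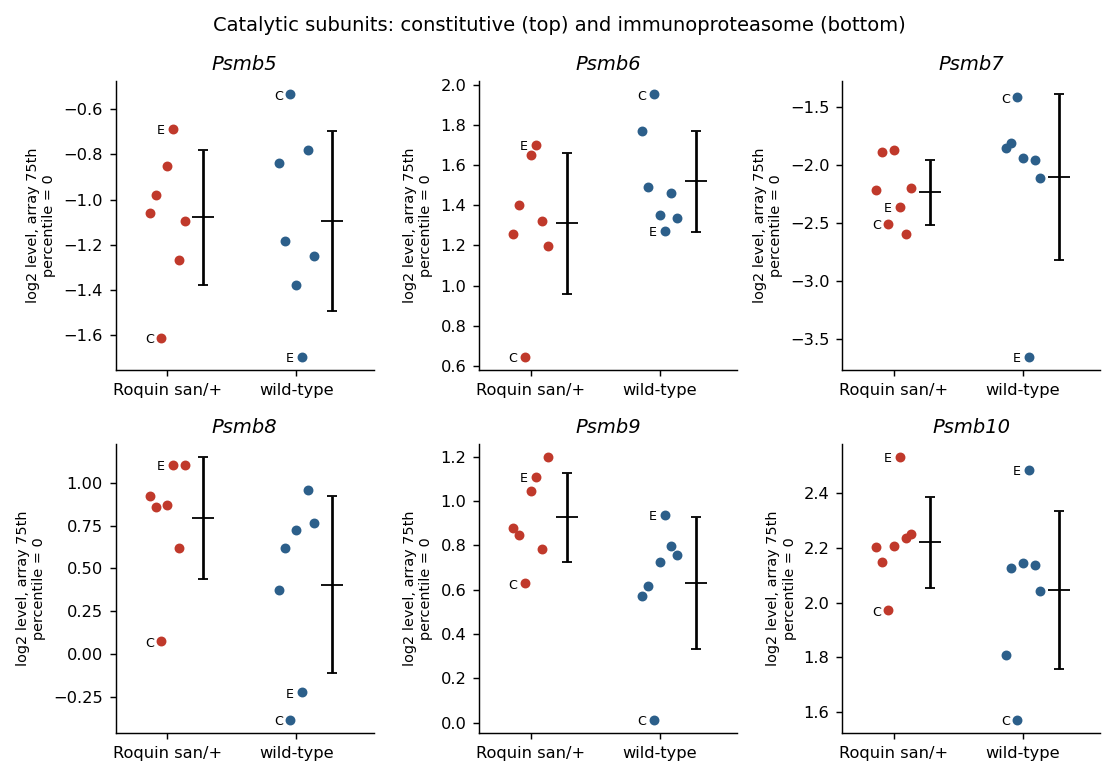
Level on each array (y axes, log2, with the array's 75th percentile at 0; each panel has its own scale) of the constitutive catalytic subunits (top) and of the immunoproteasome subunits (bottom), for 7 Roquin san/+ (red) and 7 wild-type arrays (blue), with mean and SD in black and replicates C and E lettered. Wild-type replicate C was the highest wild-type array for Psmb5, Psmb6 and Psmb7 and the lowest for Psmb8, Psmb9 and Psmb10.

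The RNA of each pair was also compared within each array, as the level of an immunoproteasome subunit less that of the subunit it replaces. The exchange of the proteins in the core was not measured. Such a difference does not depend on the value that is subtracted from a whole array. It can still depend on background and on normalization that treats bright and dim probes unequally. Only the movement of the difference between arrays has a meaning here. For Psmb8 less Psmb5 it was 1.87 ± 0.18 (SD, n = 7) in Roquin san/+ and 1.50 ± 0.67 (SD, n = 7) in wild-type, 0.37 higher with a standard error of 0.26. The Roquin san/+ arrays lay close together between 1.68 and 2.20, while wild-type arrays ran from 0.15 on replicate C to 2.10.

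For Psmb9 less Psmb6 it was -0.38 ± 0.27 (SD, n = 7) in Roquin san/+ and -0.89 ± 0.54 (SD, n = 7) in wild-type, 0.51 higher with a standard error of 0.23. All 7 Roquin san/+ arrays lay above the wild-type median of -0.67, and 2 lay above every wild-type array. With the other Psmb6 probe the shift was 0.35, and 3 of 7 Roquin san/+ arrays lay above the wild-type median, so the count of arrays rests on the choice of probe.

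For Psmb10 less Psmb7 it was 4.46 ± 0.33 (SD, n = 7) in Roquin san/+ and 4.15 ± 0.97 (SD, n = 7) in wild-type, 0.31 higher with a standard error of 0.39. Wild-type replicates C and E, at 2.99 and 6.14, bracketed every other array, and the Psmb7 probe was not well above background on replicate E. Without wild-type replicate C the 3 shifts, in the order given, were 0.15, 0.33 and 0.11, and without wild-type replicate E they were 0.37, 0.60 and 0.64. On slide 1 alone they were 0.04, 0.33 and 0.32, and on slide 2 alone 0.41, 0.40 and 0.32.

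**Figure D3:**
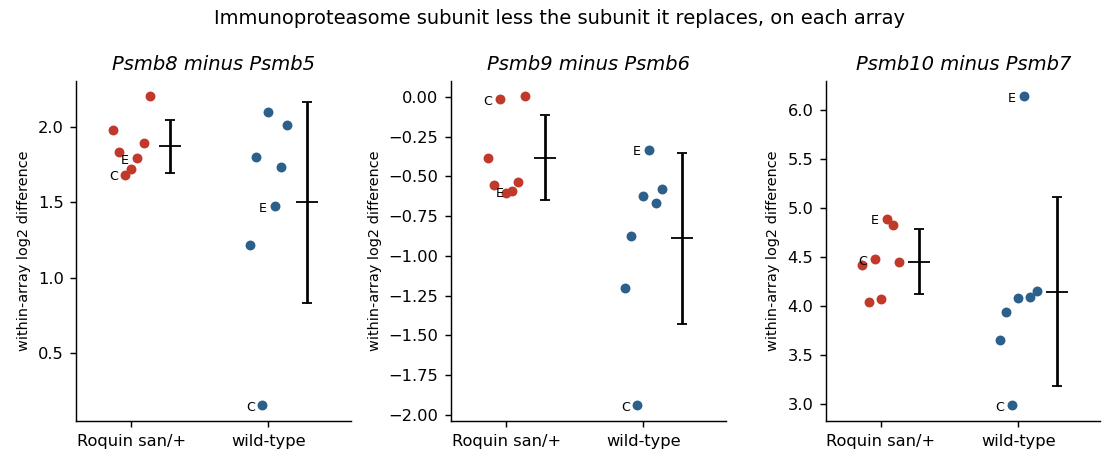
Within-array log2 difference (y axes, each with its own scale) between an immunoproteasome subunit and the subunit it replaces, for 7 Roquin san/+ (red) and 7 wild-type arrays (blue), with mean and SD in black and replicates C and E lettered. Wild-type replicate C was the lowest array in all 3 panels, and the shifts were 0.15, 0.33 and 0.11 without it and 0.37, 0.60 and 0.64 without wild-type replicate E.

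Psmb8 and Psmb9 lie in the class I and class II gene region of chromosome 17 together with Tap1 and Tap2, the peptide transporter that carries proteasome products into the endoplasmic reticulum. In the annotation of GRCm38.p6 their order is Psmb9, Tap1, Psmb8 and Tap2. The log2 differences along this block were 0.30 for Psmb9, 0.27 for Tap1 (95% confidence interval -0.09 to 0.63), 0.39 for Psmb8 and 0.08 for Tap2 (95% confidence interval -0.30 to 0.46). Tap1 levels were 0.54, 0.87 and 1.06 in Roquin san/+ and -0.20, 0.64 and 1.06 in wild-type. The highest array of Tap1 was wild-type replicate E, whereas that of Psmb9 was Roquin san/+ replicate G.

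Psmb9 and Tap1 are transcribed away from each other from 1 short stretch, which is shown because both genes share it as their promoter. The 225 bases between their starts, chr17:34187331-34187555 in GRCm38.p6, read on the Tap1 strand with capitals for the 5 matches, some of them overlapping, to GGGNNNNNCC on either strand, the letters of a kappa B site, come from the RefSeq promoter table.
Psmb9 to Tap1: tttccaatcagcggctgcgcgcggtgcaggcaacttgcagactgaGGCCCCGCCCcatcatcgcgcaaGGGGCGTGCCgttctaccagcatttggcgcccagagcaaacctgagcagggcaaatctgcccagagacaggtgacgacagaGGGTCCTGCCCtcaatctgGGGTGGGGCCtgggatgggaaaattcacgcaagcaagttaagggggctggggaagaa
Such a match stood in 50.8% of all 32851 promoter windows of 300 bases in that table. The letters of a gamma-activated site, TTCNNNGAA, stood in 3 of 43 member windows (Psmb8, Psmd2 and Psmg1), beside 8.30% of all windows. The letters of an interferon response element, GAAANNGAAA, stood in 5 of 43 (Psmb3, Psmd4, Psmd9, Psme1 and Psmg4), beside 3.44%. The letters of an antioxidant response element, TGACNNNGC, stood in 6 of 43 (Psmb5, Psmb6, Psmc6, Psmd9, Psmd12 and Psme4), beside 12.4%. The 43 windows belonged to 41 of the 49 genes, both strands were searched, and a match is a run of letters and not a measured site.

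The genes of class I presentation that surround the immunoproteasome in function were mostly higher in Roquin san/+. Of 12 tested genes of a list of 14, 10 were higher and 2 were lower, beside 49.6% higher over all tested probes, with a median log2 difference of 0.27. Of the 12, 0 passed the limma test and 1 had an unadjusted p under 0.05, beside 4.06% of all tested probes. The median was 0.16 without wild-type replicate C, and on slide 2 alone 8 of 12 were higher. With the 75th percentile taken over all probes the median was 0.10, and 9 of 12 were higher. That scaling moved every log2 difference by the same amount, so it is no check of how the list lies beside other probes. The tested myeloid markers were also higher, 4 of 4 with a median of 0.91 (0.47 without Roquin san/+ replicate F). Of these 4, 2 had an unadjusted limma p under 0.05, beside 4.06% of all tested probes. Cd68 is among these 2, and its probe passed the filter through Roquin san/+ alone. The part of the myeloid markers in the class I values was not tested. The largest difference of the list was that of Irf8, a transcription factor of myeloid and B-cells that also acts in interferon responses, at 0.75 (95% confidence interval -0.21 to 1.72). Its level on Roquin san/+ replicate F was 0.99, beside -2.37 to -1.39 on the 6 remaining arrays of that genotype, and the difference was 0.36 without that array. The lowest was Canx, a chaperone that folds class I heavy chains, at -0.06 (95% confidence interval -0.41 to 0.29). B2m, the light chain of class I, stood at 0.31 and was named after its value was seen. All 7 tested genes of an interferon-stimulated list of 9 were higher, with a median of 0.30. Mx1, the highest of these at 0.79, passed the filter through Roquin san/+ alone. The count was 6 of 7 under quantile normalization, with slide as a block or without wild-type replicate C (median 0.20), and 2 of 7 on slide 1 alone. It was also 6 of 7 with the 75th percentile over all probes, the scaling that moved every difference by the same amount.

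The other parts of the core particle were lower or close to level. All 7 tested alpha subunits, which form the outer rings, were lower, with a median log2 difference of -0.17. The median was -0.08 without Roquin san/+ replicate C, -0.09 without wild-type replicate C, -0.29 without wild-type replicate E and -0.34 without both displaced arrays. The smallest difference was that of Psma4, -0.07 (95% confidence interval -0.27 to 0.14), with levels of 1.17, 1.33 and 1.50 in Roquin san/+ and of 1.26, 1.41 and 1.52 in wild-type. At this probe, its brightest, Psma4 also varied least of all 45 genes between arrays of a genotype. The SD was 0.10, beside a median SD of 0.30 over the members and 0.39 over all tested probes. The other tested Psma4 probes gave -0.01, -0.06 and -0.44. The last of these had an SD of 1.16 in Roquin san/+ and 0.44 in wild-type, so the small spread belongs to the brightest probe.

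Psma5 had the lowest value of the ring, -0.60 (95% confidence interval -1.47 to 0.27), with levels of -2.64, 0.11 and 0.54 in Roquin san/+ and of -0.09, 0.26 and 1.24 in wild-type. The -2.64 was the dim replicate C alone, and without it the difference was -0.20. Psma8, the alpha subunit of germ cells, was well above background on 10 of the 12 well-placed arrays at its brighter probe, with levels from -8.73 to -4.49 over all 14 arrays, and was not tested.

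Of the other beta subunits, Psmb2 had the highest difference, 0.54 (95% confidence interval 0.004 to 1.07, limma unadjusted p = 0.0485, adjusted p = 0.959), with levels of -1.93, -1.39 and -0.08 in Roquin san/+ and of -2.30, -1.76 and -1.39 in wild-type. The highest array was Roquin san/+ replicate C, and without it the difference was 0.34. This brightest Psmb2 probe is named for a cDNA clone, while both probes listing the RefSeq mRNA gave -0.02 and -0.12. Psmb1 had the lowest value, -0.19 (95% confidence interval -0.90 to 0.53), and it was 0.03 without Roquin san/+ replicate C. Psmb11, the catalytic subunit of the thymus cortex, was well above background on 3 of the 12 well-placed arrays and was not tested.

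In the regulatory particle all 17 tested genes were lower in Roquin san/+ at their brightest tested probe, by small amounts. Of the other tested probes, those of Psmd1 (0.14 and 0.06) and Psmd7 (0.07) were higher. Those of Psmc1, Psmc3, Psmd4, Psmd6 and Psmd14 were lower. Without wild-type replicate C, 2 of 6 ATPases and 3 of 11 non-ATPases were higher, and the medians of these groups were -0.06 and -0.06. Among the 6 ATPases, with a median log2 difference of -0.12, Psmc1 was closest to level at -0.02 (95% confidence interval -0.38 to 0.33). Psmc6 was lowest at -0.36 (95% confidence interval -0.83 to 0.11), with levels of -1.36, 0.00 and 0.43 in Roquin san/+ and of -0.02, 0.23 and 0.55 in wild-type. The low end was again replicate C, without which the Psmc6 difference was -0.15.

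Among the 11 non-ATPases, with a median of -0.16, Psmd8, a subunit of the lid, was level at -0.01 (95% confidence interval -0.47 to 0.46). Psmd3, another subunit of the lid, was lowest at -0.37 (95% confidence interval -1.01 to 0.27), with levels of -0.48, 1.61 and 1.73 in Roquin san/+ and of 1.26, 1.62 and 2.04 in wild-type. The medians of the genotypes were thus nearly equal, and without Roquin san/+ replicate C the difference of Psmd3 was -0.07.

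The activators and the inhibitor showed no common direction: 2 of 5 tested genes were higher, and 3 of 5 without Roquin san/+ replicate C or on slide 2 alone. Psme1, a subunit of the interferon-inducible activator, had levels of -1.19, 1.65 and 1.96 in Roquin san/+ and of 1.11, 1.46 and 1.83 in wild-type, a log2 difference of -0.21 (95% confidence interval -1.04 to 0.62). The sign rests on 1 array: without Roquin san/+ replicate C, which stood at -1.19 while the other 6 lay between 1.32 and 1.96, the difference was 0.20. It was -0.66 on slide 1 alone, which holds that array, and 0.47 on slide 2 alone.

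No probe bears the name of its partner Psme2. Both probes named Psme2b, a close relative, also list RefSeq mRNAs of Psme2, so the 2 genes cannot be told apart there. The brighter of these probes gave levels of 2.87, 3.17 and 3.25 in Roquin san/+ and of 2.86, 3.04 and 3.39 in wild-type, a difference of 0.04 (95% confidence interval -0.19 to 0.28), the highest value among the activators. The lowest was that of Psme3, the activator of the nucleus, at -0.83 (95% confidence interval -1.88 to 0.23, limma adjusted p = 0.959).

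Psme3 also varied most of all members, with an SD of 1.02 between arrays of a genotype. Its levels were -2.94, -0.35 and 0.51 in Roquin san/+ and -0.80, 0.28 and 1.53 in wild-type. The -2.94 was Roquin san/+ replicate E, and without it the difference was -0.44. Within slides it was 0.11 on slide 1 and -1.81 on slide 2, where replicate E lies.

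The chaperones that assemble the proteasome had a median log2 difference of -0.22 over 6 tested genes, all lower. Psmg2, which with Psmg1 builds the alpha ring, had levels of -1.55, -1.10 and -0.83 in Roquin san/+ and of -0.96, -0.80 and -0.33 in wild-type. Its log2 difference of -0.50 (95% confidence interval -0.83 to -0.17) had the smallest unadjusted p of any member, 0.00563, and a limma adjusted p of 0.959. Roquin san/+ replicates A, B, C, F and G lay below every wild-type array, and replicates D and E lay among them. Replicates A, B, C, F and G are the Roquin san/+ arrays of slide 1, and D and E are those of slide 2. This split of the Roquin san/+ arrays is thus also their split by slide.

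The Psmg2 difference held its sign when any single array was left out, from -0.55 to -0.43, and was -0.37 and -0.31 within slides 1 and 2. A second Psmg2 probe, named for a cDNA clone, went the other way at 0.36 (limma unadjusted p = 0.0469, adjusted p = 0.959). Psmg1 stood at -0.34 (95% confidence interval -0.69 to 0.005), named after its value was seen. The smallest difference of the group was that of Psmd5, a chaperone of the ATPase base, at -0.17 (95% confidence interval -0.54 to 0.19). Psmd9, another chaperone of the base, was well above background on the 12 well-placed arrays but on neither displaced array, and was not tested.

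The same held for Psmc3ip, which meets the rule by its symbol although its product acts in meiotic recombination and is no proteasome subunit. The wider list of proteasome partners and regulators was nearer to level than the subunits. Of the 25 gene names on that list, 22 were on the array and 21 were tested. Of these 21, 15 were lower and 6 higher, beside 50.4% and 49.6% of all tested probes, with a median log2 difference of -0.06. In the limma test 0 passed and 0 had an unadjusted p under 0.05, beside 4.06% of all tested probes. Ube3c, a ubiquitin ligase that binds the proteasome, was highest at 0.22 (95% confidence interval -0.14 to 0.58), while its other tested probe stood at -0.05. Both probes passed the filter through Roquin san/+ alone, which can itself favour higher values there. The probe at 0.22 lists no RefSeq mRNA, and the other lists one. Vcp, the ATPase that pulls ubiquitinated proteins out of complexes, was lowest at -0.29 (95% confidence interval -1.05 to 0.46), and it stood at 0.09 without Roquin san/+ replicate C.

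The members were high or low together on single arrays of either genotype. As the median over the 45 genes of the deviation from each gene's mean, the Roquin san/+ arrays ran from -0.28 on replicate C to 0.10 on replicate E, with a median of -0.01. The wild-type arrays ran from -0.10 on replicate E to 0.46 on replicate C, with a median of 0.05. The genotypes overlapped, with 11 of 45 genes above their mean on Roquin san/+ replicate C and 38 of 45 on wild-type replicate C. On Roquin san/+ replicate F 10 of 45 genes were above their mean, with a median deviation of -0.11.

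On wild-type replicate C the immunoproteasome subunits went the opposite way, with a mean deviation of -0.77, against -0.28 on Roquin san/+ replicate C. Proliferation genes (Mki67, Top2a, Ccnb1, Cdk1 and Bub1) had a mean level of -1.05 on wild-type replicate C and of -1.46 on Roquin san/+ replicate C, the highest of their genotypes, with lows of -4.52 and -4.66. CD4+ T-cell markers were lowest of the wild-type arrays on replicate C, at 0.80. The part of these in the levels of the members was not tested.

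**Figure D4:**
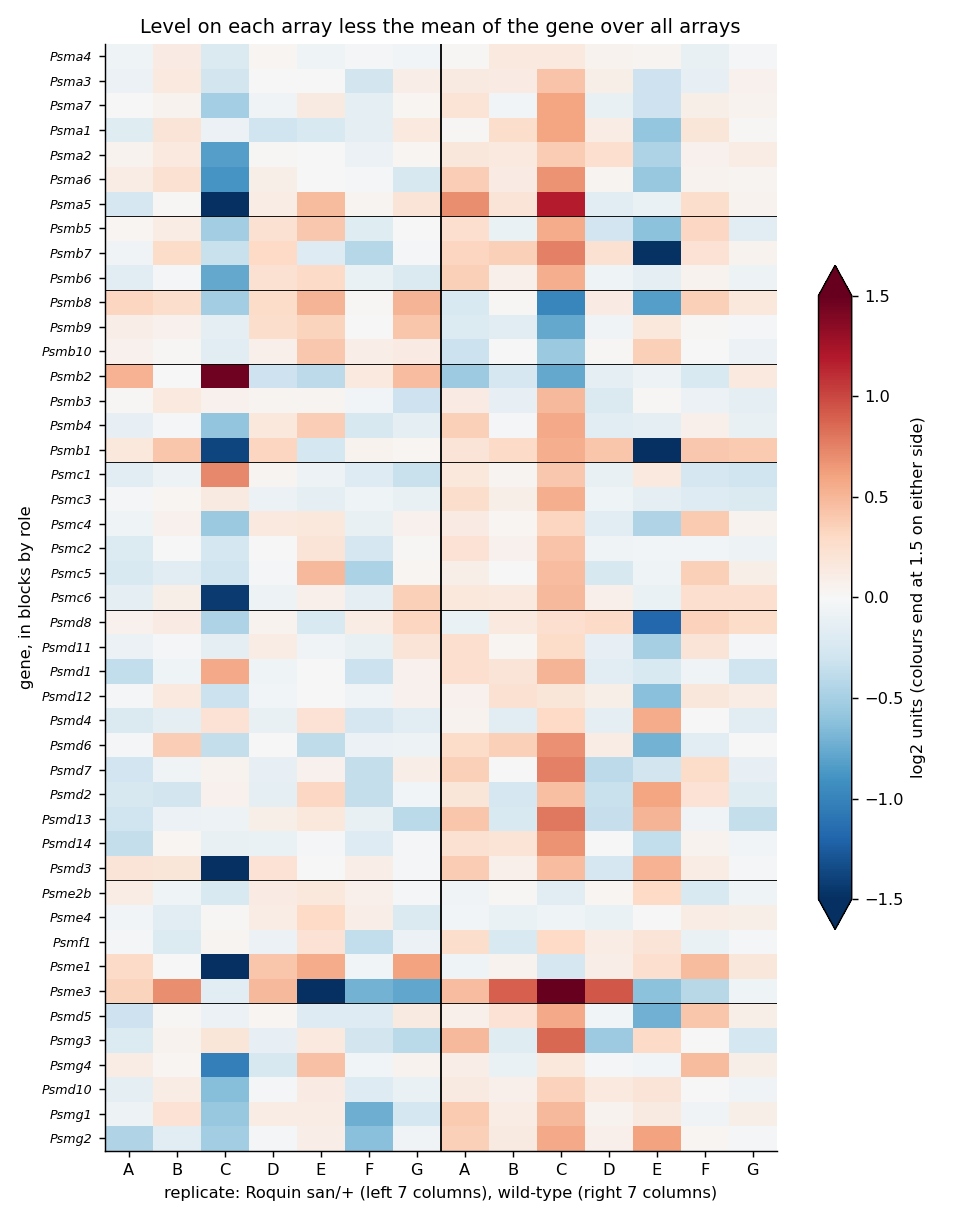
Level of each of the 45 tested genes (y axis, in blocks by role) on each array (x axis, 7 Roquin san/+ then 7 wild-type replicates) less the mean of that gene over 14 arrays, in log2 units by colour, red above and blue below, with colours ending at -1.5 and 1.5. Wild-type replicate C is red for 38 of 45 genes and blue for the 3 immunoproteasome subunits, and Roquin san/+ replicates C and F are blue for most genes.

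Probes of 1 gene did not always give 1 direction. Of the 17 genes with more than 1 tested probe, 7 had probes of both signs. The 63 tested member probes that list a RefSeq mRNA had a median log2 difference of -0.14, and 10 of them were higher. The 6 that list none (1 each for Psma3, Psmb2, Psmc1, Psmd7, Psmg2 and Psmg3) had a median of 0.20, and 5 were higher.

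In all 6 of these genes the probe without a RefSeq mRNA lay above every RefSeq probe of the same gene. This grouping was chosen after the values were seen and is given without a test. Over all tested probes, 46.3% of 9430 with a RefSeq mRNA and 58.8% of 3436 without one were higher in Roquin san/+. These shares include probes that passed the filter through 1 genotype alone, 1909 through Roquin san/+ and 637 through wild-type. The Psmg3 probe without a RefSeq mRNA also passed through Roquin san/+ alone. A filter of this kind can itself move such shares, so no conclusion is drawn from them.

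On 5 of the 6 probes the highest array was Roquin san/+ replicate C, the dim one, where their median deviation was 0.76 while that of the 63 RefSeq probes was -0.32. On wild-type replicate C these were -0.46 and 0.45. Without Roquin san/+ replicate C the medians were 0.08 for the 6 probes and -0.07 for the 63.

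**Figure D5:**
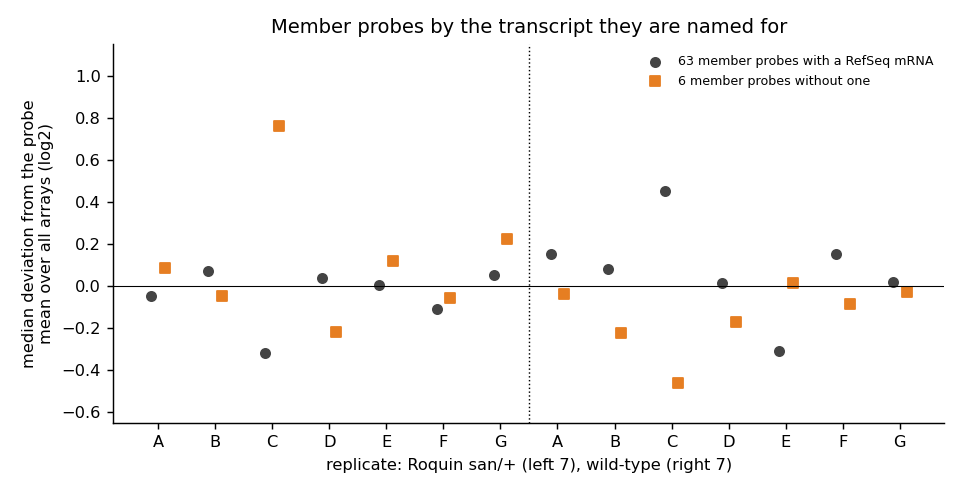
Median deviation from the probe's mean over 14 arrays (y axis, log2) on each array (x axis, 7 Roquin san/+ then 7 wild-type replicates), for the 63 tested member probes that list a RefSeq mRNA (grey circles) and the 6 that do not (orange squares). The classes part most on both replicates C, in opposite directions, with 0.76 against -0.32 in Roquin san/+ and -0.46 against 0.45 in wild-type.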

How the data were processed

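CD4+ T-cell RNA of 14 mice (7 Roquin san/+, 7 wild-type) was hybridised to one-colour arrays. The authors deposited scanner intensity files made with Agilent Feature Extraction 10.5.1.1 (per the labels), in which the processed signal is background-subtracted, and a table of log2 values, normalised in a way that is not given in the sources used here.

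The placing of each array was checked by correlating its spots with the median array over 169 shifts. Arrays Roquin san/+ G and wild-type E correlated at 0.01 as deposited and at 0.91 and 0.89 after a move of 2 rows. Their detection calls could not be repaired. Control spots and outlier flags were left out, spots of a probe were averaged, and each array's 75th percentile was subtracted. Probes detected on all 7 arrays of a genotype entered limma 3.58.1, run in R 4.3.3 (lmFit, eBayes, Benjamini-Hochberg adjustment, threshold 0.05). Of these, 1909 passed through Roquin san/+ alone and 637 through wild-type alone. Whether mice were littermates is not stated, so p-values measure the spread between these samples. The number of arrays limits the precision. On simulated data for this comparison (12866 probes), a log2 change of 0.5 was called for 16% of changed probes, 1 for 74% and 2 for 88%. The simulated noise was normal and independent between probes and arrays, without slides and without dim or displaced arrays, unlike the real data.

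The members and gene lists were chosen with earlier results of these data known, and 2 genes of the partner and class I lists are not reported here. Named were the catalytic subunits, Psme1, Psme2, Psma8 and Psmb11, and the highest and lowest tested gene of each other role group, of the partners and of the class I list, each gene at its tested probe of highest mean. Promoter sequences came from RefSeq (GRCm38.p6). Alternatives covered scaling, background, filter, slide, replicate letter, displaced arrays, rank products with 20 shuffles, and each array left out. The letters do not pair the arrays (correlations of -0.47 to 0.41).

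Marker lists gave these differences of the mean level over all list genes, Roquin san/+ minus wild-type: CD4 T-cell -0.09, CD8 T-cell 1.16, B-cell 0.96, myeloid 1.05, NK 0.18, erythroid 0.26 and plasma cell 0.47, with the highest Roquin san/+ array being replicate F for CD8 T-cell, B-cell, myeloid, NK and erythroid markers. Without that array these were 0.45, 0.33, 0.63, -0.24 and -0.44, so the NK and erythroid signs turned. These means include genes not well above background. Proliferation gave -0.27 and interferon-stimulated genes 0.34.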

Additional observations from a re-analysis of the deposited data

Results flagged for a closer look

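Levels were set apart when the gap between the highest or lowest array and its nearest neighbour exceeded 0.568 of the range of the 7 arrays of a genotype, which chance gives for about 1 in 20 groups. It happened 14 times over 54 groups of arrays, and most of these groups belong to genes named for the highest or lowest difference of their list, for which that rate is no measure. Of the 14, 7 were Roquin san/+ replicate C. That dim array stood at -1.19 for Psme1, -2.64 for Psma5, -1.78 for Psmb1, -1.36 for Psmc6, -0.48 for Psmd3 and -2.70 for Vcp, all below the other 6, and at 1.74 for Psmc1, above them. Wild-type replicate E, 1 of the displaced arrays, stood at -3.66 for Psmb7, -1.98 for Psmb1 and -3.26 for Psmd8, below the others, and at 6.14 for Psmb10 less Psmb7. Wild-type replicate C stood at 0.013 for Psmb9 beside 0.57 to 0.94 on the other 6. Roquin san/+ replicate E stood at -2.94 for Psme3 beside -0.96 to 0.51. Roquin san/+ replicate F, which stood apart in B-cell markers, was at 0.99 for Irf8 beside -2.37 to -1.39.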

How the results depend on the processing

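No alternative called a member: 0 of the proteasome probes had an adjusted p under 0.05 with limma in any of them, and rank products called 0. The median log2 difference of the genes was -0.33 with the 75th percentile taken over all probes. That scaling subtracts another value from each array. It thus moved every log2 difference by the same amount, and the median of all tested probes to -0.17. How the members lie beside other probes could not change with it, so it is no check of that. In the other alternatives on the 14 arrays the median of the genes ran from -0.19 with the deposited probe names, which leave 10 genes, to -0.09 with slide as a block, and it was -0.25 without both displaced arrays. With a replicate block, pairing arrays by letter, it stayed at -0.16, and the block changed no call. The letters give no real pairing. Leaving out each array in turn gave medians from -0.19 to -0.08, Psmb8 minus Psmb5 from 0.15 to 0.47, Psmb9 minus Psmb6 from 0.33 to 0.60 and Psmb10 minus Psmb7 from 0.11 to 0.64.

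These signs turned; the cause was not tested. With the 75th percentile over all probes, which moved every difference by the same amount, Psmb5 was -0.16 and Psme2b -0.13. With quantile normalization Psmb5 was -0.034 and Psmc1 0.0063. With normexp Psmd8 was 0.021. Without both displaced arrays Psmb5 was -0.13 and Psmc1 0.0094, and with the deposited names Psmc1 was 0.017. In the authors' log2 values Psma4 was 0.040, Psmc1 0.0020 and Canx 0.018. With slide as a block Psmc1 was 0.061. On slide 1 alone Psmb5 was -0.19, Psmb8 -0.14, Psma4 0.032, Psmc1 0.27, Psme3 0.11 and Canx 0.12. On slide 2 alone Psmb6 was 0.11, Psmb7 0.019, Psme1 0.47, Psmb1 0.058, Psmd8 0.030, Vcp 0.096, Irf8 -0.053 and Ube3c -0.17. With single arrays left out, Psmb5 ran from -0.090 to 0.11, Psme1 from -0.33 to 0.20, Psmb1 from -0.47 to 0.026, Psmc1 from -0.14 to 0.042, Psmd8 from -0.21 to 0.071, Vcp from -0.40 to 0.087 and Canx from -0.13 to 0.033.

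Slide 1 holds 2 wild-type arrays and slide 2 holds 2 Roquin san/+ arrays, so the values within a slide rest on few arrays. When only the 12 well-placed arrays decided detection, 87 member probes were tested in place of 69. Differences of the size seen here, mostly under 0.5 log2 units, were seldom called in data simulated for 14 arrays with independent noise, a simpler setting than the real arrays.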
